A study of Mus musculus with 22 samples.

Results

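Conjugation is the stage of liver metabolism in which an enzyme attaches a water-soluble group to a drug, a hormone or a bile product, and the genes described here encode the 3 large families that do this work: the glutathione S-transferases (GST), the UDP-glucuronosyltransferases (UGT) and the sulfotransferases (SULT). Members were chosen by gene symbol alone, and 64 of the 55573 genes of the deposited count matrix matched, 22 of them GST, 21 UGT and 21 SULT genes. Of these, 52 had a mean of at least 10 counts per library and were tested among 14062 genes (20 GST, 17 UGT and 15 SULT). The 12 below this level were Gsto2, Gstt4, Ugt1a2, Ugt1a8, Ugt2a1, Ugt2a2, Sult1c1, Sult2a4, Sult2b1, Sult4a1, Sult6b1 and Sult6b2.

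GST enzymes couple reactive electrophiles to glutathione, UGT enzymes transfer glucuronic acid to bilirubin, steroids and drugs, and SULT enzymes transfer sulfate from the donor PAPS to steroids, bile acids and phenols. Many of these genes are controlled by nuclear receptors and by the antioxidant factor NRF2. In rodent liver a number of them differ between the sexes, which depends on the secretion pattern of growth hormone.

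The study sequenced liver mRNA of 22 C57BL/6 mice, with 1 library per mouse as labelled. Controls were Cre mice (Flcn WT/WT; Albumin-cre+/-), which carry the transgene but no floxed allele, and liver-Flcn-/- mice (Flcn f/f; Albumin-Cre+/-) had lost Flcn, a regulator of AMPK and mTORC1 signalling, in cells that use the albumin promoter, mainly hepatocytes. From 6 weeks of age the mice received chow or a methionine- and choline-deficient (MCD) diet, a model of steatohepatitis, for 6 weeks, and were 3 months old at the end; the 2 diets came from different makers. There were 6 Cre chow, 5 Cre MCD, 5 liver-Flcn-/- chow and 6 liver-Flcn-/- MCD livers, and the libraries held 13751347 to 21144388 counts. Levels are given as CPM, a gene's share of the counts of its library on the usual per-megacount scale, after scaling with TMM factors, and a gene is called changed where edgeR's quasi-likelihood test across the 14062 genes gave a Benjamini-Hochberg adjusted p under 0.05.

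Some features of the libraries bear on the values that follow. The labels used here do not give the sex of the mice, but Xist and 4 Y-linked genes divided the livers into 12 with a female pattern (3 in each group) and 10 with a male pattern (3 Cre chow, 2 Cre MCD, 2 liver-Flcn-/- chow and 3 liver-Flcn-/- MCD). In 5 of the female-pattern libraries Y-linked counts were also present, at 6.15% to 15.6% of the median of the male-pattern libraries: Cre chow 2, Cre MCD 1, liver-Flcn-/- chow 2 and 4, and liver-Flcn-/- MCD 3. Whether these 5 libraries hold RNA of more than 1 mouse was not tested. Counts of calls without them are given below for the genotype comparisons and the interaction, but not for the comparison of the sex patterns. The 5 male-pattern chow libraries are at the same time the 5 libraries with less than 75% uniquely mapped reads, so that on chow the sex pattern and the mapped share cannot be told apart. The liver Cre MCD 3 held skeletal muscle transcripts: its 6 muscle markers, led by Myh1, summed to 2250 CPM, against 111 CPM in Cre MCD 4 and at most 50.6 CPM in any other liver. Flcn itself, counted over the whole gene and therefore also from exons outside the deleted one, was at 16.7 to 24.2 CPM in liver-Flcn-/- chow livers and at 26.1 to 40.2 CPM in Cre chow livers (log2 fold change -0.63, edgeR adjusted p = 0.025). On the MCD diet it was at 17.6 to 32.6 CPM in liver-Flcn-/- and 18.2 to 39.9 CPM in Cre livers, where the groups overlapped (log2 fold change -0.16, edgeR adjusted p = 0.57), and there the gene-level count gives no check of the genotype.

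Markers of liver cell types also moved with diet and genotype. The 6 hepatocyte markers, led by Alb, summed to a median of 128000 CPM in Cre chow, 97600 in Cre MCD, 114000 in liver-Flcn-/- chow and 71300 in liver-Flcn-/- MCD livers, and 4 of the 6 were lower on the MCD diet in each genotype. The 6 stellate cell and fibroblast markers, led by Col3a1, had median sums of 68.2 and 176 CPM in Cre mice on chow and MCD diet (5 of 6 higher on the MCD diet) and of 79.9 and 74.8 CPM in liver-Flcn-/- mice (1 of 6 lower). Cholangiocyte markers, led by Spp1, were higher on the MCD diet in 3 of 6 cases in Cre mice and in 0 of 6 in liver-Flcn-/- mice, the 3 tested of 5 neutrophil markers were higher in both genotypes, and 3 and 4 of 5 endothelial markers were lower. Of 6 macrophage markers 2 were higher and 1 lower in Cre mice and 3 lower in liver-Flcn-/- mice, and of 5 tested lymphocyte markers 0 and 4 were lower. Between the genotypes, 2 of 6 hepatocyte markers were lower in liver-Flcn-/- than in Cre livers on chow (Ttr and Pck1, log2 fold changes -0.46 and -0.89, edgeR adjusted p = 0.0079 and 0.043) and 2 of 6 on the MCD diet (Cyp2e1 and Pck1, -0.64 and -0.85, edgeR adjusted p = 0.012 and 0.033), with 0 higher on either. On the MCD diet 5 of 6 stellate cell and fibroblast markers and 6 of 6 muscle markers were also lower in liver-Flcn-/- livers. The muscle sums of the Cre MCD livers were 14.4, 1.81, 2250, 111 and 0.769 CPM, and their stellate cell and fibroblast sums 181, 89, 370, 176 and 104 CPM. Cre MCD 3, the liver with muscle transcripts, was the highest in both, and marker calls without it are not given here. Of 6 cholangiocyte markers 2 were higher in liver-Flcn-/- livers on each diet, but the median log2 fold change of the list was 0.31 on chow and -0.43 on the MCD diet. Of 5 endothelial markers 1 was higher on each diet (Stab2, log2 fold changes 0.76 and 0.62, edgeR adjusted p = 0.00023 and 0.0012). Of 6 macrophage markers 1 was higher on chow (Marco, 2.0, edgeR adjusted p = 0.019) and 1 lower on the MCD diet (Cd68, -0.73, edgeR adjusted p = 0.0061). No marker was at 0 in every liver. In whole tissue, fewer cells of a type and less RNA per cell cannot be told apart, and the part of these shifts in the results below was not tested.

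To see how much conjugating-enzyme mRNA a liver carried, the tested members of each family were first summed. Together they averaged 13610 CPM in Cre chow and 7476 CPM in Cre MCD livers. In liver-Flcn-/- livers the averages were 10480 CPM on chow and 5592 CPM on the MCD diet. Scaled CPM need not add up to the same total in each library, so that these sums are not plain shares of the counts. The GST sum was 6274 to 8274 CPM (median 6943) in Cre chow livers and 3899, 3524, 3406, 4237 and 4547 CPM in Cre MCD livers. In liver-Flcn-/- mice it was 5387, 5541, 4800, 5303 and 5735 CPM on chow and 2390 to 2867 CPM (median 2681) on the MCD diet. After TMM scaling none of the 4 groups overlapped in this sum, and every Cre liver stood above every liver-Flcn-/- liver on the same diet. The TMM factors themselves differed between the groups. They were 0.815 to 0.889 in Cre chow, 0.919 to 0.969 in liver-Flcn-/- chow, 1.06 to 1.2 in Cre MCD and 1.06 to 1.16 in liver-Flcn-/- MCD livers. The separation therefore depends on the scaling, and sums without these factors are not given here. The UGT sum averaged 4443 ± 807 CPM (SD, n = 6) in Cre chow, 2003 ± 281 CPM (SD, n = 5) in Cre MCD, 3599 ± 488 CPM (SD, n = 5) in liver-Flcn-/- chow and 1853 ± 163 CPM (SD, n = 6) in liver-Flcn-/- MCD livers, so that the diets were apart and the genotypes overlapped on each diet. The SULT sum averaged 2122 ± 359, 1550 ± 436, 1525 ± 202 and 1084 ± 203 CPM (SD) in the same order, with overlap between Cre and liver-Flcn-/- livers on each diet. These sums follow the few most abundant genes and were not tested.

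**Figure D1:**
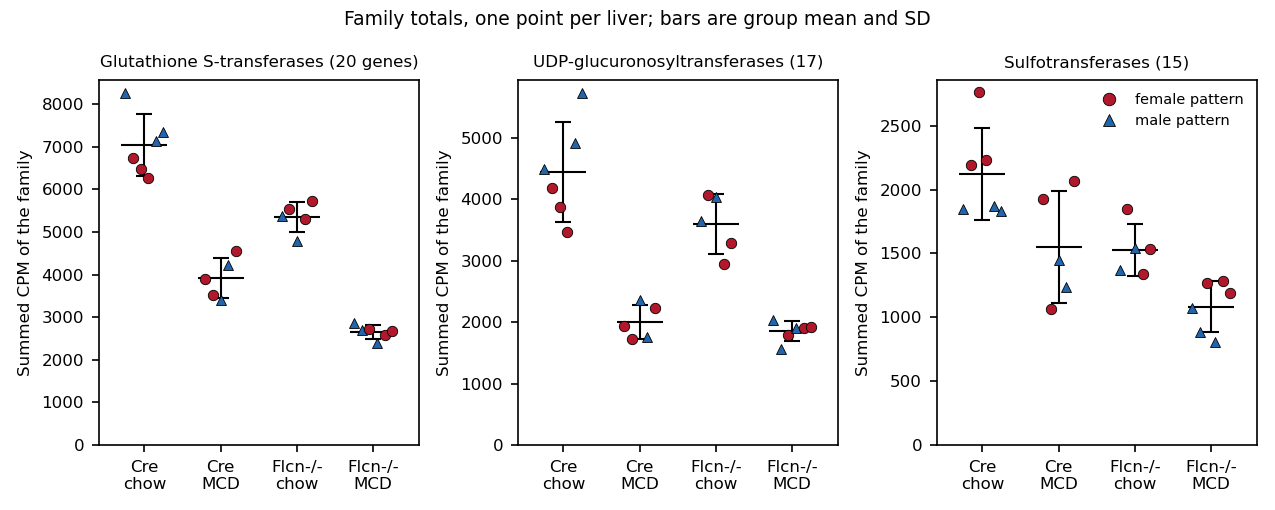
Summed CPM of each family (vertical axis, from 0) in the 4 groups, 1 point per liver, with the sex pattern of the library marked and the group mean and SD as bars. GST sums lie at 6274 to 8274 CPM in Cre chow and at 2390 to 2867 CPM in liver-Flcn-/- MCD livers, with the other groups between.

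Levels of different genes can be compared per kilobase of exon. As a mean over all Cre chow livers the mu-class transferase Gstm1 was highest at 1020 CPM per kilobase. Gsta3 was at 552, Ugt2b5, which shares sequence with Ugt2b38, at 510 and Ugt2b36 at 477. The phenol sulfotransferase Sult1a1 had the highest mean of its family at 330, with Sult2a8 at 275 (Ugt1a genes, which share exons, were left out). These means pool the sex patterns. On chow, Sult1a1 and Sult2a8 differed between the patterns in opposite directions (log2 differences, male minus female, -0.84 and 0.83, edgeR adjusted p = 0.00033 and 0.035). The order of Sult1a1 and Sult2a8, and of Gstm1 and Gstp1, is that of the pooled means and does not hold within each pattern. The mean of Gstp1, 529 CPM per kilobase, averages 3 female-pattern and 3 male-pattern livers that lay far apart, as given further on, and is the level of neither. In liver-Flcn-/- MCD livers Gstm1 was at 395 and Sult1a1 at 287 CPM per kilobase.

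The alpha-class genes Gsta1, Gsta2 and Gsta3 are shown first with their upstream sequence, because genes of this one class moved in opposite directions on the MCD diet. Each run is the 250 bases before the start of a RefSeq transcript (GRCm38.p6), 5′ to 3′ on the gene's strand, and capitals mark a match to TGACNNNGC, the core of the antioxidant response element bound by NRF2, or to TTCNNNGAA, the palindrome bound by STAT factors; TGACNNNGC was searched on both strands, and the palindrome reads the same on both.

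Gsta1, chr9:78230419-78230668, plus strand: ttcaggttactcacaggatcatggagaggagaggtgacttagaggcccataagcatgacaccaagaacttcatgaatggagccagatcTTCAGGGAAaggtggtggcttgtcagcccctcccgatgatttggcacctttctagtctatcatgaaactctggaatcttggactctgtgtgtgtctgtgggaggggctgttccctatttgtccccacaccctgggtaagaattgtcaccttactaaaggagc

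Gsta2, chr9:78347146-78347395, minus strand: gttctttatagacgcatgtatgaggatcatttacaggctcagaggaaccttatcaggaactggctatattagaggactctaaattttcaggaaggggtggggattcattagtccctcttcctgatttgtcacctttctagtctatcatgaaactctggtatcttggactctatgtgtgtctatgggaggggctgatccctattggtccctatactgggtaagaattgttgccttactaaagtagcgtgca

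Gsta3, chr1:21240335-21240584, plus strand: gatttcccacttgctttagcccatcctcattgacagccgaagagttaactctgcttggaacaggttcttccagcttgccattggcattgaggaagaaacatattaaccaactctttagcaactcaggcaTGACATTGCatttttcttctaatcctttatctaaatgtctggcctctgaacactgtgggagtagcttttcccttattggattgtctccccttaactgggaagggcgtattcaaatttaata

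Gsta3 holds 1 match to TGACNNNGC, Gsta1 holds 1 match to TTCNNNGAA, and Gsta2 holds neither in this window. RefSeq windows matched 45 of the 52 members, and of their 54 windows 5.56% held TGACNNNGC and 7.41% held TTCNNNGAA, against 10.2% and 7.02% of 32851 mouse promoters cut to the same length. The other members with TGACNNNGC were Gstm5 and Gstm7, and those with TTCNNNGAA were Gstm6, Ugt1a6a and Sult3a1. A match is a run of letters and not a measured binding site.

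The first comparison asks what the MCD diet did to conjugation genes in control livers. Of the 52 members, 6 were higher and 23 lower on the MCD diet in Cre mice (55.8%), where 57.5% of all tested genes were called, 29.3% higher and 28.2% lower. The share of members called was near that of all genes, but most of their calls were lower, with a median log2 fold change of -0.37 over the members and 0.012 over all genes. By family, 4 GST genes rose and 7 fell, 1 UGT gene rose and 10 fell, and 1 SULT gene rose and 6 fell. In 22 of the 52 members (42.3%) the livers on the 2 diets did not overlap, against 32.5% of all tested genes.

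In liver-Flcn-/- mice 9 members were higher and 24 lower on the MCD diet (63.5%), against 45% of all tested genes called, 22.5% in each direction. The median log2 fold change was -0.55 over the members and 0.0044 over all genes. By family, 4 GST genes rose and 10 fell, 2 UGT genes rose and 11 fell, and 3 SULT genes rose and 3 fell. Calls in both genotypes were made for 25 members, which is 86.2% of the calls in Cre and 75.8% of those in liver-Flcn-/- mice. Each of the 25 had the same direction in both (20 lower, 5 higher). The same overlap over all tested genes is not given here, so that these counts are not read as particular to the members. The 5 that rose in both were Gsta1, Gsta2, Gstm5, Ugt1a7c and Sult1e1.

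**Figure D2:**
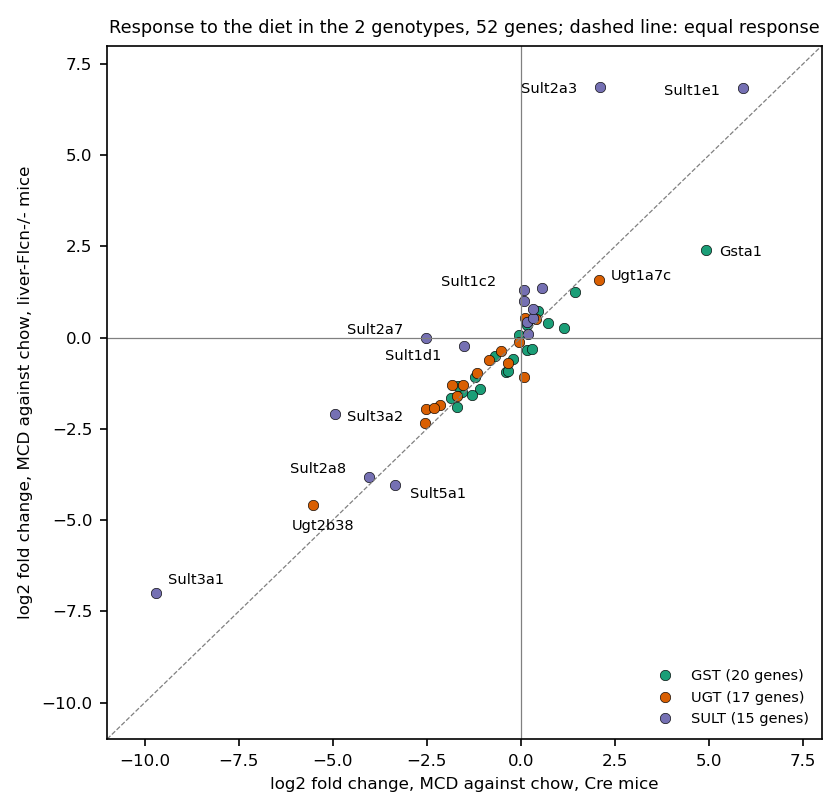
Log2 fold change of MCD against chow in Cre mice (horizontal axis) and in liver-Flcn-/- mice (vertical axis) for the 52 genes, coloured by family, with a line where both are equal. Sult1e1 stands at 5.90 and 6.82, Sult2a8 at -4.04 and -3.81, and Gsta1 (4.93 and 2.40), Sult1d1 (-1.51 and -0.22) and Sult1c2 (0.09 and 1.30) lie off the line.

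Among the alpha-class genes, Gsta3, whose enzyme detoxifies aflatoxin epoxide, was at 1980 to 3120 CPM (median 2380) in Cre chow livers and at 738, 578, 952, 959 and 835 CPM in Cre MCD livers. It fell 2.95-fold in Cre mice (log2 fold change -1.56 ± 0.13 SE, edgeR adjusted p = 5.1e-09) and 2.84-fold in liver-Flcn-/- mice (edgeR adjusted p = 1.2e-08), with no overlap of the diets in either. Gsta1 was barely detected on chow, at 0.0677 to 0.494 CPM (median 0.141) in Cre livers, or 1 to 8 counts per library, and at 0.623, 0.356, 0.336, 0.110 and 0.970 CPM in liver-Flcn-/- livers. On the MCD diet it was at 7.99, 6.72, 3.94, 11.5 and 7.94 CPM in Cre livers and at 1.15 to 4.14 CPM (median 2.55) in liver-Flcn-/- livers. Every MCD liver was above every chow liver of its genotype, and the rise was 30.5-fold in Cre mice (log2 fold change 4.93 ± 0.50 SE, edgeR adjusted p = 5.5e-08) and 5.28-fold in liver-Flcn-/- mice (log2 fold change 2.40 ± 0.48 SE, edgeR adjusted p = 0.00034). Gsta2, its neighbour on chromosome 9, rose 2.70-fold and 2.37-fold (edgeR adjusted p = 1.7e-05 and 0.00018). Of the 75-base windows of Gsta1 transcripts 84.7% also occur in other genes, most often in Gm3776, and 36.6% of those of Gsta2 do, so that the counts of this pair are uncertain.

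In other GST classes most calls were downward. Gstz1, which isomerises maleylacetoacetate in the breakdown of tyrosine, was at 818 to 1040 CPM (median 903) in Cre chow and at 538, 477, 654, 536 and 625 CPM in Cre MCD livers, a fall of 1.62-fold without overlap (log2 fold change -0.70 ± 0.10 SE, edgeR adjusted p = 3.8e-06). Gstk1, the kappa-class enzyme of mitochondria and peroxisomes, fell 2.31-fold in Cre and 2.12-fold in liver-Flcn-/- mice, and the theta-class Gstt1 fell 3.17-fold and 2.51-fold. The 7 mu-class genes lie side by side at chr3:107895821-108044894 (GRCm38), and of these Gstm6 and Gstm7 fell in both genotypes. Gstm6 was at 140 to 204 CPM (median 154) in Cre chow livers and 55.2, 53.8, 45.3, 51.8 and 40.9 CPM in Cre MCD livers. In liver-Flcn-/- mice it was at 86.6, 131, 66.0, 97.9 and 121 CPM on chow and 23.1 to 29.5 CPM (median 27.4) on the MCD diet. The diets did not overlap in either genotype, and Gstm6 fell 3.25-fold in Cre and 3.72-fold in liver-Flcn-/- mice (edgeR adjusted p = 4.4e-09 and 1.3e-09).

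Of the UGT genes called in each genotype, most fell. Ugt2b36, an abundant member of the UGT2B branch that conjugates steroids and drugs, was at 834 to 1170 CPM (median 972) in Cre chow and at 340, 220, 417, 372 and 333 CPM in Cre MCD livers. In liver-Flcn-/- mice it was at 754, 841, 720, 661 and 762 CPM on chow and 258 to 360 CPM (median 294) on the MCD diet. The diets were apart in both genotypes, 2.92-fold and 2.46-fold lower on the MCD diet (edgeR adjusted p = 6.8e-09 and 1.1e-07). Ugt2b5, of the same branch, was at 703 to 1310 CPM (median 891) in Cre chow and 356, 473, 349, 388 and 538 CPM in Cre MCD livers. The diets were apart, and Ugt2b5 fell 2.25-fold in Cre and 1.95-fold in liver-Flcn-/- mice. Of its 75-base windows 30.4% also occur in other genes, most often in Ugt2b38, so that its counts are uncertain. Ugt2b1 fell 4.95-fold and 3.81-fold. Ugt3a1, of a branch that uses sugar donors other than UDP-glucuronic acid, was at 28.8 to 66.6 CPM (median 47.2) in Cre chow and 10.0, 2.11, 13.5, 7.57 and 7.02 CPM in Cre MCD livers, and fell 5.83-fold and 5.04-fold. Ugt2b34 did not pass the test: it was at 413 to 527 CPM (median 468) in Cre chow and 448, 407, 566, 345 and 515 CPM in Cre MCD livers, which overlapped, with log2 fold changes of -0.04 ± 0.14 SE in Cre and -0.12 ± 0.14 SE in liver-Flcn-/- mice (edgeR adjusted p = 0.81 and 0.51).

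Ugt1a7c, of the UGT1A branch that conjugates phenols, was at 0.562 to 2.84 CPM (median 1.32) in Cre chow livers and at 4.82, 7.15, 4.87, 5.53 and 9.27 CPM in Cre MCD livers. It rose 4.19-fold in Cre and 3.00-fold in liver-Flcn-/- mice (edgeR adjusted p = 1.3e-05 and 0.0013), without overlap of the diets in either. The Ugt1a genes lie at chr1:88055388-88220002 and share their last exons: between 50.3% and 60.6% of the exon bases of the tested members also belong to another gene on the same strand. Reads from the shared exons cannot be assigned to 1 gene, and the Ugt1a counts are uncertain for this reason.

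The SULT genes held the largest rises and large falls. Sult1e1, estrogen sulfotransferase, was at 0.723 to 19.6 CPM (median 3.84) in Cre chow livers and at 424, 200, 503, 349 and 398 CPM in Cre MCD livers. In liver-Flcn-/- mice it was at 2.18, 0.356, 3.09, 0.386 and 1.46 CPM on chow and at 102 to 262 CPM (median 149) on the MCD diet. No chow liver reached the level of any MCD liver, and the rise was 59.8-fold in Cre (log2 fold change 5.90 ± 0.59 SE, edgeR adjusted p = 4.1e-08) and 113-fold in liver-Flcn-/- mice (log2 fold change 6.82 ± 0.69 SE, edgeR adjusted p = 9.8e-08). Without Cre chow 3, the highest of the Cre chow livers, the log2 fold change in Cre mice was 6.72. Its mean level per kilobase in Cre MCD livers, 302 CPM, stood next to that of Sult1a1 at 370 CPM.

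Sult2a8, a bile acid sulfotransferase of the liver, was at 464 to 1310 CPM (median 896) in Cre chow livers and at 46.3, 21.8, 132, 42.3 and 32.7 CPM in Cre MCD livers. In liver-Flcn-/- mice it was at 898, 905, 1060, 477 and 567 CPM on chow and 43.0 to 73.8 CPM (median 51.1) on the MCD diet. The falls of 16.4-fold and 14.1-fold left no overlap of the diets (edgeR adjusted p = 6.4e-08 and 1.1e-07), and without Cre MCD 3, the liver with muscle transcripts, the log2 fold change in Cre mice was -4.66 against -4.04 ± 0.42 SE with it. Sult5a1 fell 10.2-fold and 16.5-fold. Sult1a1 had the highest level per kilobase of the SULT members as a mean over both sex patterns. It was at 269 to 677 CPM (median 508) in Cre chow and 579, 432, 610, 629 and 541 CPM in Cre MCD livers. The diet effect did not pass the test in either genotype (log2 fold changes 0.17 ± 0.22 SE and 0.42 ± 0.22 SE, edgeR adjusted p = 0.52 and 0.13). With the sex pattern as a covariate Sult1a1 was called higher on the MCD diet in liver-Flcn-/- mice (log2 fold change 0.50, edgeR adjusted p = 0.035).

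Many members differed between the sex patterns on chow, and for these the diet comparison mixes livers that began at different levels. In a fit of 8 groups (genotype, diet and sex pattern), 25 of the 52 members differed between male- and female-pattern livers on chow, 7 higher and 18 lower in male-pattern livers (48.1%, against 11.8% of all tested genes, 5.38% higher and 6.46% lower). On the MCD diet 4 members differed, Sult2a1, Sult2a2, Sult2a5 and Sult2a6, each lower in male-pattern livers (7.69%, against 0.434% of all tested genes, 0.178% lower). The diet effect itself differed between the patterns for 15 members (28.8%, against 7.48% of all tested genes). The female-pattern livers in this fit include those whose libraries also held Y-linked counts, and the comparison of the patterns was not run without them.

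Gstp1, of the pi class, was at 130 to 264 CPM (median 161) in the 6 female-pattern and at 1240, 1230, 1980, 1320 and 1190 CPM in the 5 male-pattern chow livers. Of the female-pattern chow livers with Y-linked counts, liver-Flcn-/- chow 2 and 4 were the highest, at 264 and 249 CPM, and Cre chow 2 was at 164 CPM. On chow and MCD diet alike, levels without such livers were not tested. On the MCD diet it was at 184 to 395 CPM (median 245) in female-pattern and 218, 392, 218, 264 and 230 CPM in male-pattern livers. The patterns were apart on chow and overlapped on the MCD diet, with log2 differences, male minus female, of 2.90 ± 0.17 SE and 0.05 ± 0.17 SE (edgeR adjusted p = 1.8e-09 and 0.94). With the diet Gstp1 rose 1.41-fold in female-pattern and fell 5.08-fold in male-pattern livers, and the difference of these effects was -2.84 ± 0.24 SE on the log2 scale (edgeR adjusted p = 5.2e-07). Of its 75-base windows 29.2% also occur in other genes.

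Gstt3, of the theta class, had the opposite order on chow: it was at 91.4 to 155 CPM (median 126) in female-pattern and 70.9, 54.0, 26.4, 28.1 and 22.7 CPM in male-pattern livers, and at 18.2 to 33.3 CPM over all MCD livers. It fell 4.77-fold in female-pattern and 1.46-fold in male-pattern livers, a log2 difference of 1.71 ± 0.27 SE (edgeR adjusted p = 0.00079). Ugt1a5 fell 6.30-fold in female-pattern livers, while in male-pattern livers its log2 fold change was -0.17 ± 0.21 SE (edgeR adjusted p = 0.53). Ugt2b38 was higher in male-pattern chow livers, at 17.6, 27.4, 72.5, 28.9 and 28.2 CPM against 0.485 to 5.11 CPM (median 2.10) in female-pattern chow livers, and was at most 0.936 CPM in any MCD liver. It was called lower on the MCD diet in both genotypes (edgeR adjusted p = 0.00036 and 0.0012), and 28% of its 75-base windows also occur in other genes.

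**Figure D3:**
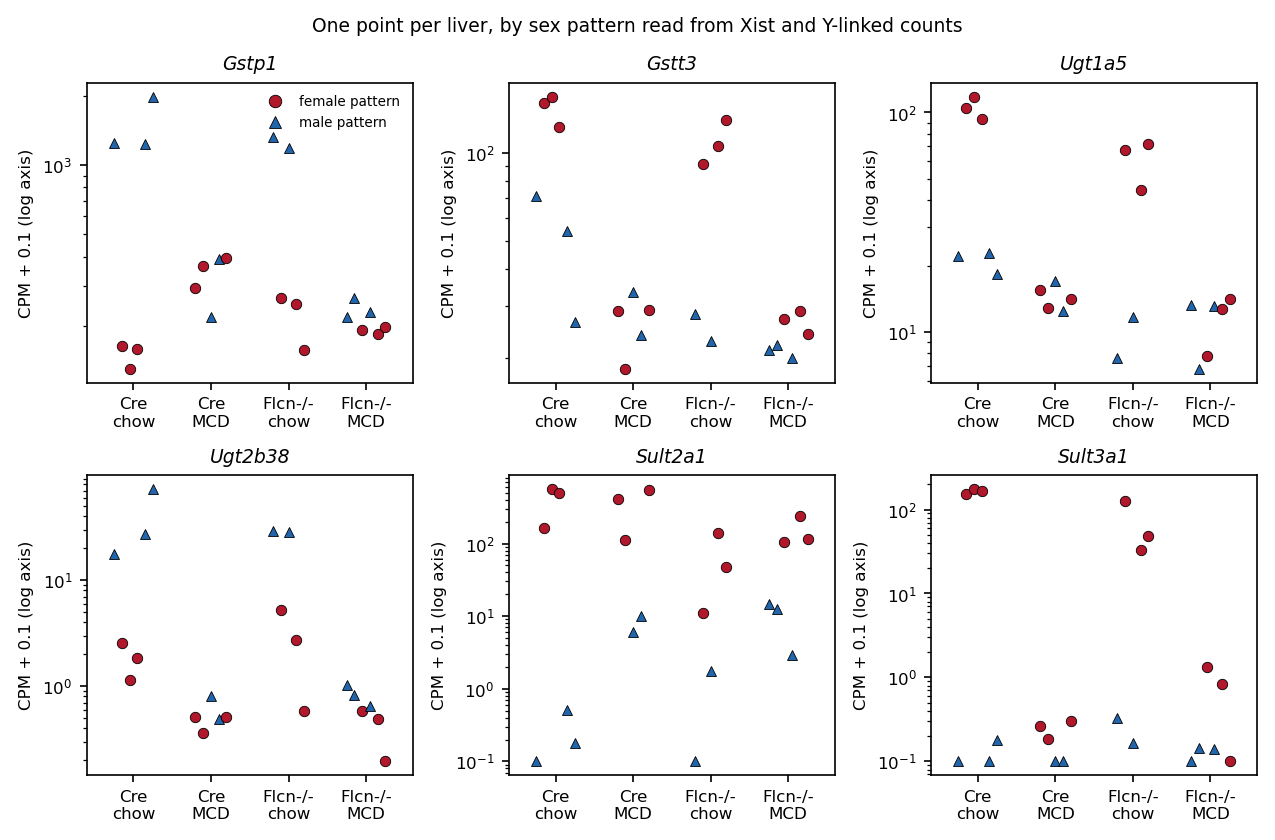
Levels of 6 members in each liver (CPM plus 0.1, log axis) by group, with the sex pattern of each library marked. On chow the patterns are apart for these genes, and on the MCD diet they overlap except for Sult2a1, at 105 to 541 CPM in female-pattern and 2.83 to 14.5 CPM in male-pattern livers.

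Sult3a1, an amine sulfotransferase, was detected on chow mainly in female-pattern livers, at 153, 176, 166, 126, 33.0 and 48.6 CPM, where the first 3 values are from Cre mice. The 5 male-pattern chow livers were at 0 to 0.233 CPM and the 11 MCD livers at 0 to 1.24 CPM. It was called lower on the MCD diet in both genotypes (edgeR adjusted p = 0.00076 and 0.0026), and the diets overlapped because male-pattern chow livers were as low as MCD livers. No fold is given, since the lower levels rest on few or no counts.

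Sult2a1, which sulfates dehydroepiandrosterone and bile acids, differed between the patterns on both diets. On chow it was at 11 to 565 CPM (median 153) in female-pattern and 0 to 1.68 CPM in male-pattern livers, and on the MCD diet at 105 to 541 CPM (median 177) and 2.83 to 14.5 CPM (median 9.90). The log2 difference on the MCD diet, male minus female, was -4.72 ± 0.69 SE (edgeR adjusted p = 0.0035). With the diet Sult2a1 rose in male-pattern livers, which held at most 25 counts each on chow (edgeR adjusted p = 0.0012), and had a log2 fold change of 0.49 ± 0.52 SE in female-pattern livers (edgeR adjusted p = 0.43). Of the 75-base windows of Sult2a1 19.5% and of Sult2a2 47.2% also occur in other genes. Over the 5 comparisons, 13 more calls of members were made with the sex pattern as a covariate and 0 were lost; that fit called 58.1% and 45.8% of all tested genes for the diet in Cre and liver-Flcn-/- mice, 9.13% and 17.5% for the genotype on chow and MCD diet, and 9.86% for the interaction.

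Sult2a3, of the same SULT2A group, was at 0, 0, 0.537, 0.0551 and 0.539 CPM on chow and at 6.59 to 53.3 CPM (median 23.7) on the MCD diet in liver-Flcn-/- mice, higher on the MCD diet without overlap (edgeR adjusted p = 0.00077). In Cre mice it was at 0 to 57.2 CPM (median 1.46) on chow, with the 3 higher values in female-pattern livers, and at 97.0, 29.6, 37.3, 65.6 and 114 CPM on the MCD diet. The difference in Cre mice missed the threshold (log2 fold change 2.10 ± 0.94 SE, edgeR adjusted p = 0.06) and passed it with the sex pattern as a covariate (log2 fold change 2.85, edgeR adjusted p = 0.006).

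The second question was what loss of Flcn did on chow. In liver-Flcn-/- livers 2 members were higher and 8 lower than in Cre livers (19.2%), against 8.62% of all tested genes called, 5.52% higher and 3.1% lower. The median log2 fold change was -0.38 over the members and -0.027 over all genes, and 43 of the 52 members were below 0, against 54.6% of all tested genes. The 8 lower members were Gsta3, Gstm6, Gstz1, Ugt1a7c, Sult1b1, Sult1e1, Sult2a3 and Sult2a7, and the 2 higher members were Sult1c2 and Sult5a1. The genotypes did not overlap in 4 of the 52 members (7.69%), against 6.94% of all tested genes.

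Gstm6 was 1.60-fold lower (log2 fold change -0.68 ± 0.14 SE, edgeR adjusted p = 0.0034), and Gsta3 was 1.37-fold lower (log2 fold change -0.46 ± 0.13 SE, edgeR adjusted p = 0.032), each without overlap of the genotypes. Gsta3 was at 1660, 1940, 1500, 1760 and 1880 CPM in liver-Flcn-/- chow livers and at 1980 CPM or more in Cre chow livers. Ugt1a7c was at 0.934, 0.297, 0.537, 0.551 and 0.593 CPM in liver-Flcn-/- chow livers, and 1 Cre chow liver lay within that range (2.61-fold lower, edgeR adjusted p = 0.024). Sult2a7 was at 0.964 to 13.2 CPM (median 6.71) in Cre and 1.25, 1.72, 1.21, 0.496 and 1.08 CPM in liver-Flcn-/- chow livers (6.22-fold lower, edgeR adjusted p = 0.0084), where the values above 10 CPM were those of the 3 female-pattern Cre livers. Sult2a3 was called lower (edgeR adjusted p = 0.013), but in male-pattern livers alone its log2 fold change was 2.39 (edgeR adjusted p = 0.7).

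Sult1c2, a member of the SULT1C branch, was higher after loss of Flcn. It was at 6.09 to 14.9 CPM (median 8.82) in Cre and 23.0, 17.6, 17.7, 20.6 and 29.2 CPM in liver-Flcn-/- chow livers, 2.27-fold higher without overlap (log2 fold change 1.18 ± 0.20 SE, edgeR adjusted p = 0.00043). Leaving out 1 liver ended other calls on chow. The call of Gsta3 was lost without any one of Cre chow 1, 2 or 5, Cre MCD 5 or liver-Flcn-/- chow 1, 3 or 4 (edgeR adjusted p up to 0.083), and that of Sult1e1 without any one of Cre chow 1 or 3 or liver-Flcn-/- chow 2, 4 or 5 (up to 0.13). That of Gstz1 was lost without any one of Cre chow 1 or 2, Cre MCD 5 or liver-Flcn-/- chow 1, 3, 4 or 5 (up to 0.089), and that of Ugt1a7c without Cre chow 5 or liver-Flcn-/- chow 2 or 4 (up to 0.069). Of the 10 calls on chow, that of Sult1c2 was the one that passed under every alternative run and without each liver in turn. Without the 5 libraries that held both Xist and Y-linked counts 4 members were called, against 3.29% of all tested genes in that fit, and without the liver-Flcn-/- chow 4 liver 6 were, against 4.76%; the share of all genes fell with that of the members.

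On the MCD diet 2 members were higher and 12 lower in liver-Flcn-/- than in Cre livers (26.9%), against 16.6% of all tested genes called, 8.06% higher and 8.53% lower. The lower members were mostly GST genes: 9 of the 20 were lower and 0 higher, and their median log2 fold change was -0.49, against -0.014 over all genes. Of the 17 UGT genes 2 were lower, and of the 15 SULT genes 2 were higher and 1 lower. The genotypes did not overlap in 10 of the 52 members (19.2%), against 8.61% of all tested genes. Among male-pattern livers alone 8 members were called, against 4.89% of all tested genes in that fit, and without the 5 libraries with both Xist and Y-linked counts 11 were, against 8.49%.

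**Figure D4:**
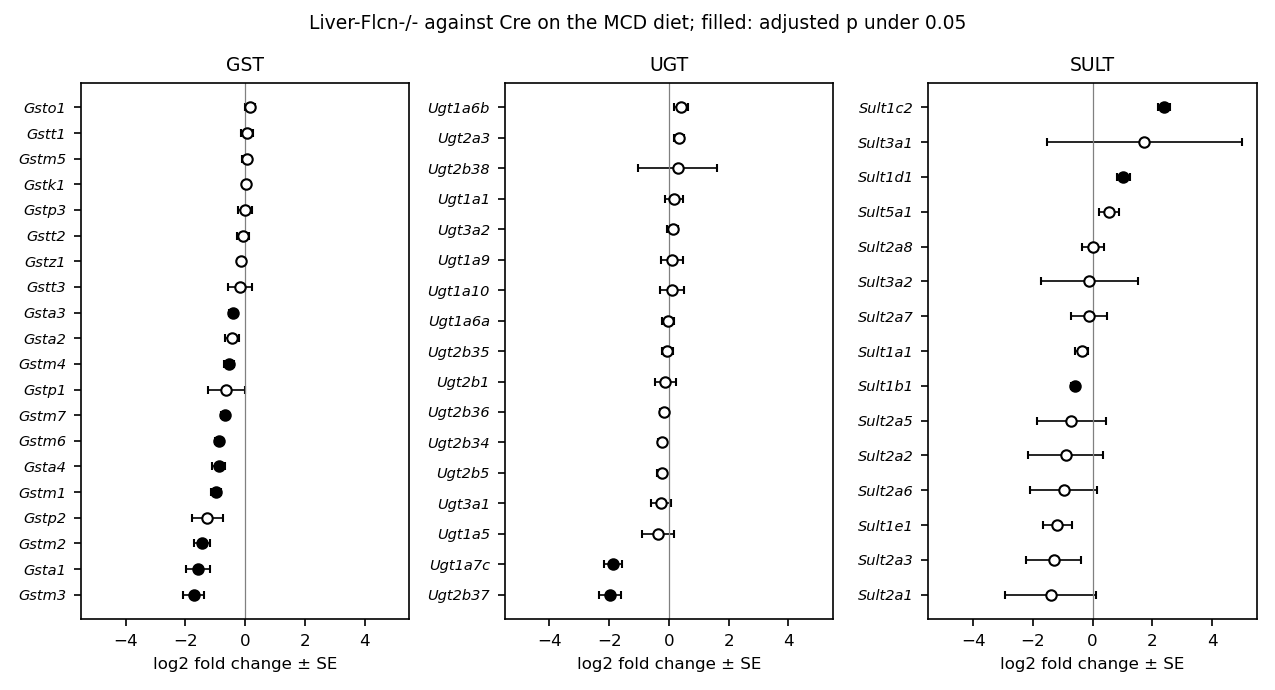
Log2 fold change with its SE for liver-Flcn-/- against Cre mice on the MCD diet, with each member on a line of its own within its family and called members filled. Called members lie below 0 for 9 GST genes, 2 UGT genes and Sult1b1, and above 0 for Sult1c2 and Sult1d1.

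Of the 7 mu-class genes on chromosome 3, Gstm1, Gstm2, Gstm3, Gstm4, Gstm6 and Gstm7 were lower in liver-Flcn-/- MCD livers, and Gstm5, which lies on the other strand, had a log2 fold change of 0.06 ± 0.16 SE (edgeR adjusted p = 0.85). Gstm3 was at 323, 136, 114, 239 and 303 CPM in Cre and at 43.7 to 106 CPM (median 59.4) in liver-Flcn-/- MCD livers, 3.29-fold lower without overlap (log2 fold change -1.72 ± 0.35 SE, edgeR adjusted p = 0.002). Gstm1 was at 1120, 1130, 724, 1200 and 1540 CPM in Cre and 456 to 685 CPM (median 588) in liver-Flcn-/- MCD livers, 1.96-fold lower without overlap (log2 fold change -0.97 ± 0.18 SE, edgeR adjusted p = 0.00088). Gstm2 was 2.71-fold lower (edgeR adjusted p = 9e-04). Gstm3 rose 2.19-fold with the diet in Cre mice (edgeR adjusted p = 0.0088) and had a log2 fold change of 0.25 ± 0.35 SE in liver-Flcn-/- mice, but the difference of these effects did not pass the test (log2 -0.88 ± 0.50 SE, edgeR adjusted p = 0.29). Of the 75-base windows of Gstm3 21.6% also occur in other genes.

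In the alpha class Gsta1, Gsta3 and Gsta4 were lower in liver-Flcn-/- MCD livers. The call of Gsta3 was lost without any one of Cre MCD 3, 4 or 5 or liver-Flcn-/- MCD 2 to 6 (edgeR adjusted p up to 0.11), and that of Gstm4 in the mu class without any one of Cre MCD 1, 2 or 5 or liver-Flcn-/- MCD 1, 2, 3 or 6 (up to 0.14). Gsta1 was 2.98-fold lower (log2 fold change -1.57 ± 0.39 SE, edgeR adjusted p = 0.0076), and its highest liver-Flcn-/- value of 4.14 CPM lay just above the lowest Cre value of 3.94 CPM, which came from the liver with muscle transcripts. Gsta4, which conjugates the lipid peroxidation product 4-hydroxynonenal, was 1.84-fold lower (edgeR adjusted p = 0.0088). Of the UGT genes, Ugt1a7c was at 1.03 to 2.97 CPM (median 1.61) in liver-Flcn-/- MCD livers, below every Cre MCD liver (3.64-fold, log2 fold change -1.87 ± 0.31 SE, edgeR adjusted p = 0.00032). Ugt2b37 was at 8.61, 7.63, 17.4, 6.40 and 5.12 CPM in Cre and 1.48 to 3.62 CPM (median 2.04) in liver-Flcn-/- MCD livers, again without overlap (3.92-fold lower, edgeR adjusted p = 9e-04).

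Sult1c2 and Sult1d1 were the members higher in liver-Flcn-/- MCD livers. Sult1c2 was at 8.81, 12.8, 12.2, 8.10 and 8.66 CPM in Cre and at 43.7 to 65.6 CPM (median 53.0) in liver-Flcn-/- MCD livers, 5.27-fold higher without overlap (log2 fold change 2.40 ± 0.21 SE, edgeR adjusted p = 1.3e-07). Sult1d1, which sulfates catecholamines and other phenols, was at 68.3, 86.1, 62.6, 51.2 and 110 CPM in Cre and 104 to 211 CPM (median 160) in liver-Flcn-/- MCD livers (2.04-fold higher, log2 fold change 1.03 ± 0.23 SE, edgeR adjusted p = 0.0034), with 1 Cre liver inside the liver-Flcn-/- range. It lies at chr5:87554645-87569027 between Sult1b1 and Sult1e1. Sult1b1 was 1.52-fold lower in liver-Flcn-/- MCD livers (edgeR adjusted p = 0.0013), and Sult1e1 had a log2 fold change of -1.18 ± 0.49 SE that missed the threshold (edgeR adjusted p = 0.1).

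The last comparison asks whether the response to the diet depended on Flcn, as the interaction of genotype and diet. It was called for 3 of the 52 members (5.77%), 2 higher and 1 lower, against 8.83% of all tested genes, 3.29% higher and 5.54% lower. Sult1d1 fell 2.85-fold with the diet in Cre mice (edgeR adjusted p = 1e-05), while in liver-Flcn-/- mice, at 135, 233, 147, 149 and 234 CPM on chow, its log2 fold change was -0.22 ± 0.22 SE (edgeR adjusted p = 0.44), and the difference of these effects was 1.29 ± 0.32 SE on the log2 scale (edgeR adjusted p = 0.015). Sult1c2 had a log2 fold change of 0.09 ± 0.20 SE with the diet in Cre mice and rose 2.47-fold in liver-Flcn-/- mice (edgeR adjusted p = 1.8e-05), a difference of 1.22 ± 0.28 SE (edgeR adjusted p = 0.011). Gsta1 rose less in liver-Flcn-/- mice, by a log2 difference of -2.53 ± 0.72 SE (edgeR adjusted p = 0.031), but this call was lost with limma-voom (adjusted p = 0.091), without the 5 chow libraries of low mapped share (0.2) and without any one of Cre chow 4, Cre chow 5, Cre MCD 4 or liver-Flcn-/- chow 5 (0.05 to 0.11). None of the 3 passed in edgeR without the 5 libraries that held both Xist and Y-linked counts or in male-pattern livers alone, fits that called 0.597% and 0.441% of all tested genes, while 9 members were called in female-pattern livers, against 8.62% of all tested genes, and 6 without the liver that held muscle transcripts, against 10.1%. The comparisons share their groups, so that 1 group's level enters more than 1 of them.

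**Figure D5:**
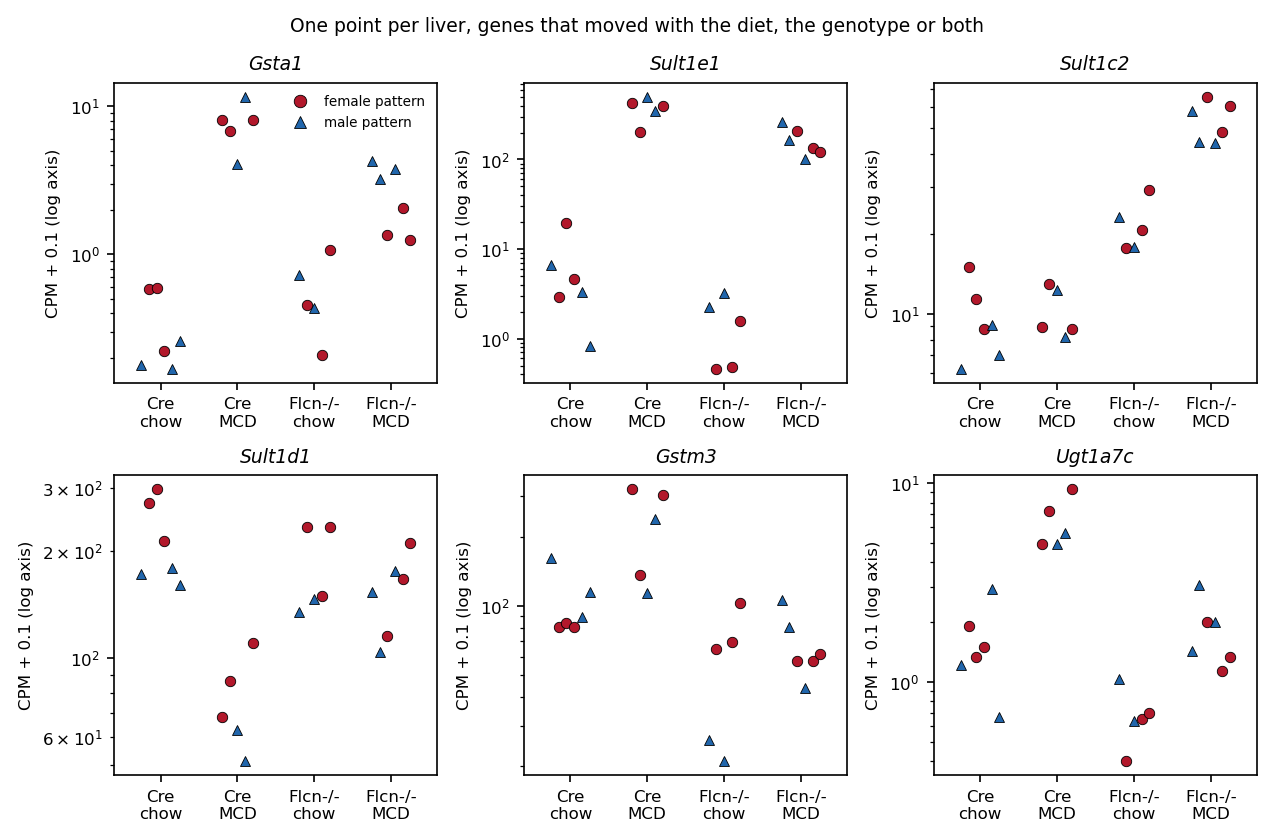
Levels of 6 members in each liver (CPM plus 0.1, log axis) by group, with the sex pattern of each library marked. Sult1c2 is higher in liver-Flcn-/- livers on both diets, at 43.7 to 65.6 CPM on the MCD diet against 8.10 to 12.8 CPM in Cre MCD livers.

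Genes that supply the co-substrates were read from lists set beside the families. Their counts stand against the 57.5% of all tested genes called for the diet in Cre mice (29.3% higher and 28.2% lower) and the 45% in liver-Flcn-/- mice (22.5% in each direction), and several lists lie near those shares. Of 6 genes for the supply and turnover of UDP-glucuronic acid, 5 were higher and 1 lower on the MCD diet in Cre mice, and 4 higher and 1 lower in liver-Flcn-/- mice. Slc35d1, which carries UDP-glucuronic acid into the endoplasmic reticulum, rose by 0.83 and 0.62 on the log2 scale (edgeR adjusted p = 6.3e-05 and 0.002). Of 8 tested genes for the supply of PAPS, 3 rose and 3 fell in each genotype. Papss2, a PAPS synthase, was at 295 ± 95.4 CPM (SD, n = 6) in Cre chow and 94.0 ± 34.6 CPM (SD, n = 5) in Cre MCD livers and fell by 1.65 in Cre and 1.96 in liver-Flcn-/- mice on the log2 scale (edgeR adjusted p = 5.1e-05 and 8.6e-06). Of 12 genes for the supply and recycling of glutathione, 4 rose and 3 fell in Cre mice, with 1 in each direction in liver-Flcn-/- mice. Gss, glutathione synthetase, rose by 2.05 and 1.48 on the log2 scale (edgeR adjusted p = 2.7e-08 and 4.8e-06). Of 8 genes listed as microsomal and other glutathione transferases outside the chosen families, 4 rose and 2 fell in Cre mice, with 3 in each direction in liver-Flcn-/- mice. The list holds Ptgds, which is not a glutathione transferase and fell in both genotypes (log2 fold changes -4.30 and -2.13, edgeR adjusted p = 6.1e-08 and 3.4e-05). Mgst1 was at 3890 ± 768 CPM (SD, n = 6) in Cre chow livers and fell by 1.17 and 1.04 on the log2 scale (edgeR adjusted p = 2e-06 and 1.2e-05). Of 16 genes for conjugation with methyl, acetyl and amino acid groups, 10 fell and 0 rose with the diet in Cre mice, and the diet lowered 8 and raised 1 in liver-Flcn-/- mice, among them Baat, which conjugates bile acids (log2 fold changes -1.43 and -1.09, edgeR adjusted p = 2.3e-09 and 1.5e-07).

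Target genes and regulators outside the families were read in the same way, against the same shares for the diet and, for the genotype on the MCD diet, against 16.6% of all tested genes called (8.06% higher and 8.53% lower). Of 14 NRF2 target genes, 7 rose and 2 fell with the diet in Cre mice, and 4 rose in liver-Flcn-/- mice. When MCD livers were compared, 6 of the 14 were lower in liver-Flcn-/- than in Cre livers and 0 higher, with a median log2 fold change of -0.44 against -0.014 over all genes. Srxn1, which repairs oxidised peroxiredoxins, was lower by -0.95 on the log2 scale (edgeR adjusted p = 0.00075), and the others were Txnrd1 (-0.44), Cbr3 (-1.49), Pgd (-0.71), Slc7a11 and Hmox1. Of 11 target genes of the receptors CAR, PXR and AHR, 3 rose and 3 fell with the diet in Cre mice, 3 fell in liver-Flcn-/- mice, and 3 were lower in liver-Flcn-/- than in Cre MCD livers. Of 16 receptors and transcription factors, 11 fell with the diet in Cre and 7 in liver-Flcn-/- mice, and 0 rose in either. Stat5b fell by 1.17 on the log2 scale in Cre mice (edgeR adjusted p = 1.2e-07) and was higher by 0.80 in liver-Flcn-/- than in Cre MCD livers (edgeR adjusted p = 0.00016). Of 12 sex-dependent liver genes outside the families, 6 fell with the diet in Cre and 7 in liver-Flcn-/- mice, and 0 rose in either.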

How the data were processed

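Liver mRNA of 22 mice was read from a table of raw read counts per gene, deposited by the authors and not normalized; the study's notes name bcl2fastq, Trimmomatic, STAR, HTSeq and GRCm38, with versions and strand setting not given in the sources used here. Library adapters carried unique molecular identifiers, and whether these were used in counting is not stated. Each column was matched to its sample by name, and 0 columns were left unused. Library totals were 13751347 to 21144388 counts, and TMM factors 0.815 to 1.2.

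Members and lists were chosen with earlier results of these data known. Genes with a mean of at least 10 counts over the libraries were tested in R 4.3.3 with edgeR 4.0.16 (quasi-likelihood, 4 groups, no covariate, Benjamini-Hochberg over all 14062 genes), after tests on simulated data. Each SE of a log2 fold change is the size of that change divided by the square root of edgeR's F statistic. It is an approximation, and a poor one where counts are few. Values by liver, in some or all of the groups being compared, were given for members chosen by 2 rules. These were the 3 members of each family with the highest mean CPM and, in each comparison, the 2 members of each family with the largest change among those called with a mean of at least 1 CPM. For several of them not every group is printed, and the diet effect on Gstm1 is not given. Members shown by sex pattern, Ugt1a5 and Sult2a1 among them, were chosen after their values were seen, as was the 8-group fit. Other members have fold changes only, and pathway lists up to 4 genes with the smallest adjusted p.

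Alternatives were limma-voom (limma 3.58.1), DESeq2 1.42.0 with its size factors, other filters on low counts, no TMM factors, the compared groups alone, a replicate block, the sex pattern as a covariate, subsets of libraries and each liver left out. Positions and shared exons came from GENCODE M21 and promoters from RefSeq (GRCm38.p6). Each library is labelled as 1 mouse, so that p-values measure the spread between libraries so labelled.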

Additional observations from a re-analysis of the deposited data

Results flagged for a closer look

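The values of the 22 named members and the GST, UGT and SULT sums were tested for a liver apart from its group. Of these 100 groups of values 6 had one, where chance alone gives about 1 in 20, and each was of a named member. The liver Cre MCD 3, which held muscle transcripts, was high for Sult2a8 (132 CPM, next highest 46.3), Ugt2b37 (17.4, next 8.61) and Sult2a7 (3.09, next 0.922). Sult1e1 was at 19.6 CPM in Cre chow 3 (next 6.48), Ugt2b37 at 9.92 CPM in liver-Flcn-/- chow 2 (next 3.88) and Ugt2b38 at 72.5 CPM in Cre chow 6, a male-pattern liver (next 27.4). The part of muscle transcripts or of the sex pattern in these values was not tested.

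The diet effect differed between the genotypes by edgeR's interaction term for Gsta1 (log2 difference, liver-Flcn-/- minus Cre, -2.53), Sult1c2 (1.22) and Sult1d1 (1.29).

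Between the sex patterns, the diet effect differed by the same kind of test for 15 members. The log2 difference, male minus female pattern, was above 0 for Gstm2 (1.12), Gstt1 (0.90), Gstt3 (1.71), Sult1a1 (0.88), Sult2a1 (3.96), Sult2a2 (5.42), Sult2a5 (7.17), Sult2a6 (7.29), Ugt1a1 (1.09) and Ugt1a5 (2.49). It was below 0 for Gstp1 (-2.84), Gstp2 (-1.75), Ugt2b1 (-1.41), Ugt2b35 (-0.69) and Ugt2b38 (-3.04). The values of Sult2a1, Sult2a2, Sult2a5 and Sult2a6 rest on male-pattern chow livers with few or no counts (at most 25, 10, 2 and 1 per library) and depend on the prior count. On chow the sex pattern and the share of uniquely mapped reads cannot be told apart.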

How the results depend on the processing

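For the diet 29 members were called in Cre mice (29 to 33 with 1 liver left out, 24 to 38 over the other alternatives, which called 26.8% to 68.6% of all tested genes) and 33 in liver-Flcn-/- mice (30 to 33 with 1 liver left out, 27 to 37 over the other alternatives, which called 18.9% to 53.6%). The genotype comparison on chow gave 10 calls (8.62% of all tested genes), 13 with DESeq2 (10.8%), 14 with the sex pattern as a covariate (9.13%), 6 with at least 10 counts in every library (7.43%; 39 members were tested and the 4 other calls were not among them), 5 with the compared groups alone (7.55%), 5 in male-pattern livers (2.41%), 4 without the 5 libraries with Xist and Y-linked counts (3.29%), and 6 to 12 with 1 liver left out (6 without liver-Flcn-/- chow 4, 4.76%). Of the genotype comparison on the MCD diet, 14 calls (16.6% of all tested genes) became 12 to 15 with 1 liver left out and 8 to 18 over the other alternatives, with the 8 in male-pattern livers (4.89%). The interaction was called for 3 members (8.83% of all tested genes), for 6 without the 5 chow libraries of low mapped share (5.54%), 9 in female-pattern livers (8.62%), 0 in male-pattern livers (0.441%), 0 without the 5 libraries with Xist and Y-linked counts (0.597%), and 2 to 6 with 1 liver left out (6 without Cre MCD 3, 10.1%). Subsets hold fewer livers, and the cause of these changes was not tested. In male-pattern livers alone the log2 fold change turned for Sult3a2 with the diet in Cre mice (3.86, edgeR adjusted p = 0.12), Ugt1a5 with the diet in liver-Flcn-/- mice (0.17, 0.74) and Sult2a3 between genotypes on chow (2.39, 0.7). Without TMM factors the median of all genes moved from 0.012 to 0.43 with the diet in Cre mice and from 0.0044 to 0.27 in liver-Flcn-/- mice, from -0.027 to 0.12 between genotypes on chow and from 0.030 to -0.13 for the interaction, and calls were 16 higher and 22 lower in Cre mice against 6 and 23 (68.6% of all tested genes called against 57.5%), and 3 and 6 between genotypes on chow against 2 and 8 (11.2% against 8.62%).

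Correlations of the deviations of same-numbered mice were mixed: -0.136 to -0.0146 and -0.187 to 0.21 for the diet in Cre and liver-Flcn-/- mice, -0.551 to 0.47 for the genotype on chow (3 of 5 pairs over 0.1) and 0.0621 to 0.262 on the MCD diet (2 of 5 over 0.1). In no comparison were all pairs over 0.1, and the numbers were not taken to pair the mice. With replicate number added as a block, 33, 30, 8, 12 and 3 members were called for the diet in Cre and liver-Flcn-/- mice, the genotype on chow and on the MCD diet, and the interaction, against 55%, 41.9%, 6.18%, 13.3% and 3.93% of all tested genes; of the 3 interaction calls 2 were shared with the fit without it, and Gsta1 was lost (log2 -2.23, edgeR adjusted p = 0.091).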
